A study of Mus musculus with 2 samples.

Results

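The genes described here are 10 mouse genes of 1 transcription factor network, the basic helix-loop-helix (bHLH) factors Twist1, Twist2 and Hand2, their E protein partners Tcf3, Tcf4 and Tcf12, and the Id inhibitors Id1, Id2, Id3 and Id4. They were taken by a rule on gene names, though earlier results of these data were known when they were chosen. All 10 were found once each among the 55536 gene entries of the GENCODE M21 tables. A bHLH factor binds DNA as a dimer at a short sequence called an E-box, and the tissue-restricted Twist and Hand factors usually pair with a broadly expressed E protein. Id proteins have the helix-loop-helix but lack the basic region that contacts DNA, so an E protein held by an Id protein cannot bind an E-box. In the limb bud, BMP signalling induces Id genes, Hand2 sets up anterior to posterior polarity upstream of Shh, and Twist1 is needed for limb bud outgrowth.

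The samples were limbs of B6NCrl mouse embryos at 12.5 days, which form a single group with 2 libraries named biological replicates in the labels. Limbs of 88 embryos were pooled for replicate 1 and of 68 for replicate 2, both sexes mixed, and each library used 10 ng of RNA, oligo-dT priming and ERCC spike-in RNA. No treatment, mutant or other tissue was analysed here, so values are compared between genes and between these 2 libraries, and no condition was tested. Genes held 29633457 and 30118921 expected counts in replicates 1 and 2, so that 1 TPM of a 2000-nt transcript stands for 37.5 and 37.9 reads. TPM is transcript abundance scaled by length and by depth, and the values below are the authors' deposited TPM for GENCODE M21 on mm10 unless another scale is named. All 7 limb mesenchyme markers (Prrx1, Prrx2, Msx1, Tbx5, Tbx4, Pitx1 and Hoxa13) were at 1 TPM or more in both libraries and summed to 904 and 958 TPM. Muscle, endothelial, red blood cell, epithelial and leukocyte markers were present too, so each level below is that of a mixed tissue, in which fewer cells of a type and less RNA per cell cannot be told apart.

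All 10 genes were expressed, and together they held 1805 TPM in replicate 1 and 1828 TPM in replicate 2. The 4 Id genes made up 58.7% ± 1.52 of that sum (SD, n = 2), the 3 E proteins 35.5% ± 1.54, and Twist1, Twist2 and Hand2 5.82% ± 0.0232. Id3 was highest, and the other genes followed in the order Tcf4, Id2, Id1, Tcf3, Tcf12, Twist1, Twist2, Hand2 and Id4. A step in this order was called apart where the ratio in both libraries exceeded the library-to-library difference that 95% of the 500 genes nearest in level stayed under, on the log2 scale. By that measure 6 of the 9 steps were apart. The steps between Tcf4 and Id2, Id2 and Id1, and Id1 and Tcf3 were not. Non-adjacent genes of that stretch were apart per length in M21, with Tcf4 above Id1 1.30-fold and above Tcf3 1.56-fold, and Id2 above Tcf3 1.43-fold. With GENCODE M4, Id2 was above Tcf4 and the step from Tcf4 to Id1 was within the spread. In CPM (expected counts scaled to a common library total and not divided by length), the order ran Tcf4, Id3, Tcf3, Tcf12, Id2, Id1, Twist1, Twist2, Hand2 and Id4, with Tcf3 and Tcf12 above Id2 and Id1. The class shares turned over with it, to 35.3% and 36.7% for Id genes, 59.7% and 58.2% for E proteins and 4.96% and 5.15% for Twist and Hand genes in replicates 1 and 2. No p is given for a pair of genes, because 2 values against 2 cannot reach a two-sided exact permutation p below 0.333.

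**Figure D1:**
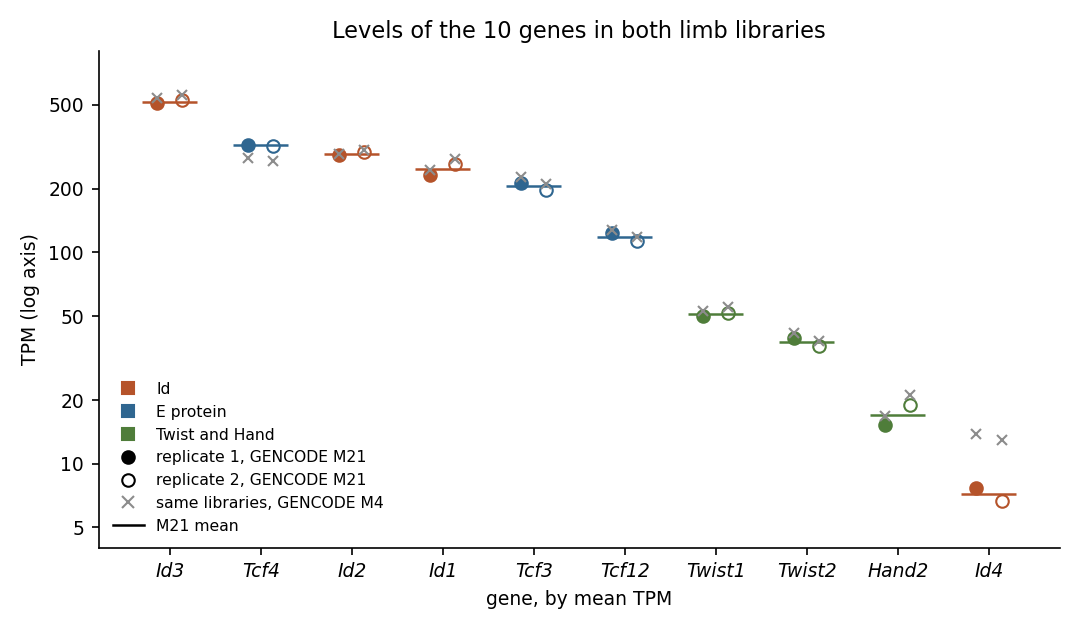
Level of each gene in TPM on a log axis, with filled points for replicate 1, open points for replicate 2, a line at the mean of both, and crosses for the same libraries quantified with GENCODE M4. Id3 stands at the top at 509.52 and 524.64 TPM, Id4 at the bottom at 7.66 and 6.66 TPM, and the M4 crosses lie clearly off the M21 points for Tcf4 and Id4.

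Id3, an inhibitor of E proteins, was read at 509.52 TPM in replicate 1 and 524.64 TPM in replicate 2. It lies at chr4:136143497-136145755 on the plus strand (mm10) and ranked 253rd among all genes and 217th among protein-coding genes. It stood 1.61-fold above Tcf4, the next gene, with both libraries beyond the spread. Within the family, Id3 exceeded Id2 1.76-fold and Id1 2.09-fold. It supplied 48.5% ± 0.682 of the summed Id TPM (SD, n = 2).

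Id2 (chr12:25093799-25097140, minus strand), an Id gene best known for its need in innate lymphoid cells, had 288.97 and 297.38 TPM. Id1 (chr2:152736251-152737410, plus strand), a direct target of BMP-activated Smad proteins, had 233.21 and 263.00 TPM. The Id2 level was above that of Id1 in both libraries, by 1.18-fold on average, but this step was within the spread of genes of like level. Id1 also varied more between the libraries than Id2 and Id3 did, with a coefficient of variation of 8.49%, against 2.03% for Id2 and 2.07% for Id3.

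Id4 (chr13:48261228-48266026, plus strand), the family member best known from neural progenitors and spermatogonia, stood apart from its relatives. It had 7.66 and 6.66 TPM, from 567 and 498 expected counts, and supplied 0.674% ± 0.0897 of the Id sum (SD, n = 2). Id3 exceeded it 72.4-fold. The size of that gap depends on the transcript model. With GENCODE M4, whose Id4 transcript is 1660 nt long in place of 3849 nt, Id4 had 13.85 and 12.97 TPM and the gap was 40.8-fold. In CPM the gap was 22.0-fold. Id4 was the lowest of the 10 genes on all 3 scales, but on the M4 and the CPM scale the step from Hand2 down to Id4 was within the spread.

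The E proteins, which serve as common partners of tissue-restricted bHLH factors, were all above Twist1, Twist2 and Hand2. Tcf3 (chr10:80409514-80433647, minus strand), the gene of the E12 and E47 proteins, had 214.13 and 197.08 TPM. Tcf12 (chr9:71842688-72111871, minus strand), which encodes HEB and whose human counterpart is mutated in craniosynostosis, had 123.58 and 113.28 TPM. Tcf3 exceeded Tcf12 1.74-fold per length, beyond the spread, and 1.18-fold in CPM, where Tcf12 transcripts average 3932 nt and Tcf3 transcripts 2702 nt. Tcf3 also exceeded Twist1 4.04-fold, and Tcf12 exceeded it 2.33-fold.

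Tcf3 carries a pair of alternative exons in its bHLH-coding part, the source of its E12 and E47 forms, and a transcript uses 1 or the other. They are shown because the split of Tcf3 RNA rests on the bases by which they differ. Both are from the GENCODE M21 transcripts, read on the minus strand of mm10, 5′ to 3′. The upstream exon is chr10:80412827-80413062 (236 nt, GC content 65.7%) and the downstream exon is chr10:80410398-80410624 (227 nt, GC content 64.3%). Both lie inside the coding region, and 175 of 236 aligned positions were identical (74.2%). Capitals mark the same stretch in both, at the junction of the basic region and the first helix, at bases 95 to 112 of the upstream and 86 to 103 of the downstream exon. The annotation used here does not say which exon gives E12 and which E47.
Tcf3 upstream exon: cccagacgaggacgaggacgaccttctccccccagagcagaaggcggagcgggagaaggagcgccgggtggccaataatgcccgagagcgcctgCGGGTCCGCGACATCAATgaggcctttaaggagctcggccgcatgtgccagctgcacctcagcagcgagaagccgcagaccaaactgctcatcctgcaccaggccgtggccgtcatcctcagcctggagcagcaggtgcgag
Tcf3 downstream exon: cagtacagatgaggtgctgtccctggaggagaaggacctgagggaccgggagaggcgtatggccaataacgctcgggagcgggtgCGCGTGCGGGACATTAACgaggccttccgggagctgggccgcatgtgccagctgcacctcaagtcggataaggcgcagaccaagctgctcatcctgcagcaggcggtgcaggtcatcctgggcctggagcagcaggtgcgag

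Tcf3 RNA was split between these exons in the same way in both libraries. Transcripts with the downstream exon held 58.9% of Tcf3 TPM in replicate 1 and 59.9% in replicate 2, or 59.4% ± 0.681 (SD, n = 2), over 7 annotated transcripts. Those with the upstream exon held 39.3% and 39.0%, or 39.1% ± 0.232, over 5 transcripts. The remaining 2 transcripts have neither exon and held 1.76% and 1.12%. One of the 5 upstream-exon transcripts, Tcf3-212, is annotated as non-coding and held 7.54% and 8.57%, and without it the upstream exon held 31.8% and 30.4%.

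Single Tcf3 transcripts were less steady than the exon groups. Tcf3-209, which has the downstream exon, led with 27.69% and 29.94% of Tcf3 TPM. Tcf3-208 had 21.15% and 15.45%, Tcf3-206 had 15.80% and 19.57%, Tcf3-210 had 15.74% and 10.84%, and Tcf3-202 had 4.30% and 9.78%. These are 19-exon transcripts of 2829 to 2950 nt, and their shares moved more between libraries than the sum over each exon did. Of the 14 annotated Tcf3 transcripts, 3 were at 0 TPM in both libraries.

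Tcf12 was divided by start site. Transcripts that begin at the far 5′ end of the gene held 48.1% and 49.2% of its TPM over 13 annotated models, or 48.6% ± 0.766 (SD, n = 2). Transcripts that begin at an internal first exon held 48.0% and 46.2% over 4 models, or 47.1% ± 1.32, and the remaining 4 models held 3.90% and 4.68%. The internal start gives a shorter coding region, and its leading transcript Tcf12-207 has 14 exons and a coding region of 1608 nt, against 20 exons and 2046 nt in Tcf12-201, which leads the far 5′ set. Tcf12-207 held 30.46% and 30.58%, and Tcf12-201 held 23.60% and 21.23%.

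The RefSeq promoter windows at the starts of these Tcf12 transcript sets are shown because each set held nearly the same share of Tcf12 RNA while the windows differ in base composition. Each runs from 250 bases before to 50 bases after a RefSeq start on GRCm38.p6, minus strand, 5′ to 3′, and capitals mark the E-box letters CANNTG. The far window is chr9:72111770-72112069 and holds the annotated starts of Tcf12-201 (72111821), Tcf12-202 (72111847) and Tcf12-220 (72111807). The internal window is chr9:71896047-71896346 and holds the starts of Tcf12-215 (71896089) and Tcf12-217 (71896086), while Tcf12-207 starts just upstream of it, at 71896396. GC content was 71.7% in the far window and 36.3% in the internal window, and the median over 32851 RefSeq promoter windows was 52.7%. Another RefSeq window near the far end, chr9:72111152-72111451, is not shown. It holds the start of Tcf12-208 (72111202), with a GC content of 75.7% and 2 CANNTG.
Tcf12 far window: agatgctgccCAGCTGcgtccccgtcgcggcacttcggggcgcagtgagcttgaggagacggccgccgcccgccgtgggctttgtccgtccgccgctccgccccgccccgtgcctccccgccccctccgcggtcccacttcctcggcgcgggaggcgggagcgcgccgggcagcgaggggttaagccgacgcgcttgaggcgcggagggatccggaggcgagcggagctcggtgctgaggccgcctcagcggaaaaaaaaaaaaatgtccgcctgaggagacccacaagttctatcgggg
Tcf12 internal window: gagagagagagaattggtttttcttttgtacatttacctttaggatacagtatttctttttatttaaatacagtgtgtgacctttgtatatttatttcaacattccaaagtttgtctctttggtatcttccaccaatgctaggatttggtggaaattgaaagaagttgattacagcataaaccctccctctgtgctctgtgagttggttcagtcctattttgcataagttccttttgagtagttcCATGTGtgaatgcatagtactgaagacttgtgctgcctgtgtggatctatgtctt

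Each of the Tcf12 windows shown has 1 CANNTG. It reads CAGCTG in the far window, and CATGTG in the internal one. The letters CANNTG read the same on both strands as a pattern and include CATATG and CAGCTG. RefSeq gave windows for 8 of the 10 genes, 10 windows in all with 3 for Tcf12, and none for Tcf4 and Id1. CANNTG was found in 6 of the 10, those of Hand2, Tcf3, Id2 and Tcf12, and in 72.3% of all windows of this length, and the windows of Twist1, Twist2, Id3 and Id4 had none. GGCGCC, the core of a GC-rich Smad-binding sequence, was found in the windows of Hand2, Id2 and Id4 and in 11.9% of all windows. These matches describe letters in a 300-base window and say nothing about binding.

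Twist1 and Twist2 are close relatives that drive mesenchymal fate, and Twist1 had the higher level. Twist1 (chr12:33957671-33959829, plus strand) had 50.03 and 51.66 TPM from 1510 and 1575 expected counts. Twist2 (chr1:91801461-91848028, plus strand), also called Dermo1 for its dermal expression, had 39.40 and 36.10 TPM. Twist1 exceeded Twist2 1.35-fold, beyond the spread of genes of like level, and it was higher in both libraries. Because they are related, their transcripts were compared for shared sequence that could blur the assignment of reads. The coding regions were 65.5% identical, and the longest run of identical bases was 23 nt, at base 403 of the Twist1 coding region and base 265 of that of Twist2, both in transcript orientation, 5′ to 3′, from GENCODE M21.
Twist1 and Twist2 shared run: ctgcgcaagatcatccccacgct

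Apart from Id1 and Id2, no other pair within the 3 classes shared a run over 19 nt. For Id1 and Id2 the search returned 0 nt though their coding regions were 59.0% identical, so their longest run is not known. A search of all GENCODE M21 transcripts for stretches of at least 100 nt at 95% identity or more found no copy of any of the 10 genes elsewhere, and returned 3 overlapping genes of the opposite strand, Gm29100, Hand2os1 and Gm49291, the last of which shares 110 nt with Id4 and had 0.37 and 0.19 TPM. Gm29100 shares 689 nt with Twist2 on the opposite strand and was given 203 and 200 expected counts, 21.3% of those of Twist2. The use of strand in counting is not given in the sources used here, so reads of Twist2 and its antisense partner may not be told apart.

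Hand2 (chr8:57320983-57324633, plus strand), the posterior limb bud factor, was the lowest of the tissue-restricted members, at 15.30 TPM in replicate 1 and 18.89 TPM in replicate 2. Twist1 exceeded it 2.99-fold and Twist2 2.22-fold, both beyond the spread, though in CPM the step from Twist2 to Hand2 was within it. A long non-coding RNA gene on the opposite strand, Hand2os1 (chr8:57281117-57324233), covers 3251 nt of the Hand2 locus. It was given far more abundance than Hand2, 109.88 and 140.84 TPM, with 303% as many expected counts as Hand2. Its exons share 246 nt with those of Hand2. As the use of strand is not stated, how far reads in the shared part were given to the right gene was not tested.

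Hand2 was also the member that differed most between the libraries, and Hand2os1 differed in the same direction. Replicate 2 was 1.24-fold above replicate 1 for Hand2 and 1.28-fold above it for Hand2os1. A difference between libraries was called where TPM was at least 25% higher in 1 library than in the other, in genes with a mean of at least 1 TPM. Of the 10 genes 0 were called, against 18.7% of all 15926 genes tested (2983 genes). Every one of the 10 genes averaged 5 TPM or more, and among the 11338 genes at that level 7.71% were called. The median absolute log2 ratio was 0.12 over the 10 genes and 0.12 over all genes tested. All genes at 20 to 100 TPM and at 100 to 1000 TPM, where 2 and 6 of the 10 genes lie, differed less, with medians of 0.08 and 0.06. At 5 to 20 TPM, where Hand2 and Id4 lie, the median was 0.13. The log2 ratio of replicate 2 over replicate 1 was 0.30 for Hand2 and -0.20 for Id4, the lowest members, and between -0.13 and 0.17 for the others.

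**Figure D2:**
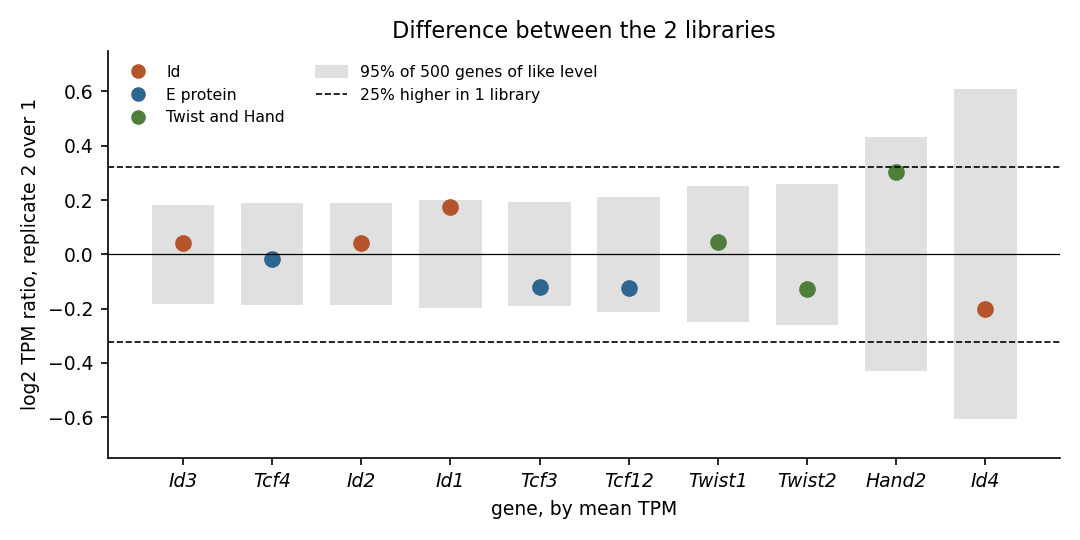
Log2 TPM ratio of replicate 2 over replicate 1 for each gene, with grey bars for the range that holds 95% of the 500 genes nearest in level and dashed lines where 1 library is 25% higher. All 10 points lie inside their grey bars, Hand2 is nearest to a dashed line at 0.30, and the bars widen from 0.18 for Id3 to 0.61 for Id4.

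Some of the 10 genes differed between the libraries by more than counting error. The share of all genes that do so was not computed, so this cannot be read as particular to the 10. For Hand2 the ratio of reads, replicate 2 over replicate 1 at TMM library sizes, was 1.23, with an exact binomial 95% interval of 1.11 to 1.36. For Tcf3 the ratio was 0.914 (0.889 to 0.939), for Tcf12 0.955 (0.927 to 0.983), for Id1 1.12 (1.08 to 1.17) and for Id4 0.865 (0.766 to 0.978). For Id3, with 11512 and 11891 expected counts, it was 1.02 (0.992 to 1.04). Reads are not independent molecules, so the intervals cover counting error only. With GENCODE M4 the Hand2 difference passed the 25% bound, at 16.81 TPM in replicate 1 and 21.10 TPM in replicate 2. Hand2 was then the 1 member of 10 called, beside 16.7% of all 15114 genes tested with M4.

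Markers of limb type moved between the libraries too. Pitx1 and Tbx4, which mark the hindlimb, had 135.56 and 163.98 TPM and 30.60 and 35.10 TPM in replicates 1 and 2. Tbx5, which marks the forelimb, had 39.96 and 28.38 TPM and passed the 25% bound. Hand2 was thus higher in the library with more hindlimb marker RNA and less forelimb marker RNA, and the part of limb type in its difference was not tested. Summed neuron markers were 13.2 and 20.7 TPM, liver markers 7.22 and 4.84 TPM and leukocyte markers 24.7 and 20.8 TPM in replicates 1 and 2. At 1 TPM or more in both were 2 of 4 neuron, 2 of 4 liver and 3 of 3 leukocyte markers, with no marker listed at 0, and their part in the members' values was not tested.

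Tcf4, which encodes E2-2 and is the most abundant of the E proteins, had 323.31 TPM in replicate 1 and 319.19 TPM in replicate 2. It lies at chr18:69343356-69689079 on the plus strand. Its log2 ratio between libraries, -0.02, was the nearest to 0 of the 10 genes. Tcf4 exceeded Tcf3 1.56-fold and Tcf12 2.72-fold, both beyond the spread, and held 49.8% ± 1.27 of the E protein TPM (SD, n = 2). With GENCODE M4 it had 279.44 and 271.15 TPM, and its lead over Tcf3 was 1.26-fold.

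Tcf4 is also the member with the most annotated transcripts, 62, of which 17 were at 0 TPM in both libraries. Transcripts were grouped by the first base of their annotated model. Those that start within 50 kb of the 5′ end of the gene held 62.3% and 61.3% of its TPM. Those that start 150 to 200 kb from it held 15.5% and 15.2%, and those over 200 kb from it 22.0% and 23.2%. The last group includes retained-intron models, such as Tcf4-241 at 4.03% and 5.32% and Tcf4-236 at 3.38% and 2.82%. Its coding model Tcf4-204 held 4.81% and 5.22%. In the 150 to 200 kb group the retained-intron model Tcf4-209 held 2.70% and 3.95%. Promoter use was not measured. A single model starts between 50 and 150 kb, and it held 0.220% and 0.304%. By share of TPM, the leading transcript was Tcf4-205, with 22.60% and 20.57%. Tcf4-207 followed with 11.90% and 12.63%, and Tcf4-246 with 7.10% and 7.17%. That lead depends on the scale and the annotation. As a share of expected counts Tcf4-207, a transcript of 8577 nt, led with 35.7% and 36.7% and Tcf4-205, of 2192 nt, had 16.7% and 14.7%, while with GENCODE M4 Tcf4-205 held 38.6% of TPM. The other models past 5% in either library were Tcf4-210, Tcf4-243, Tcf4-204 and the retained-intron model Tcf4-241, at 4.03% to 6.80%.

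**Figure D3:**
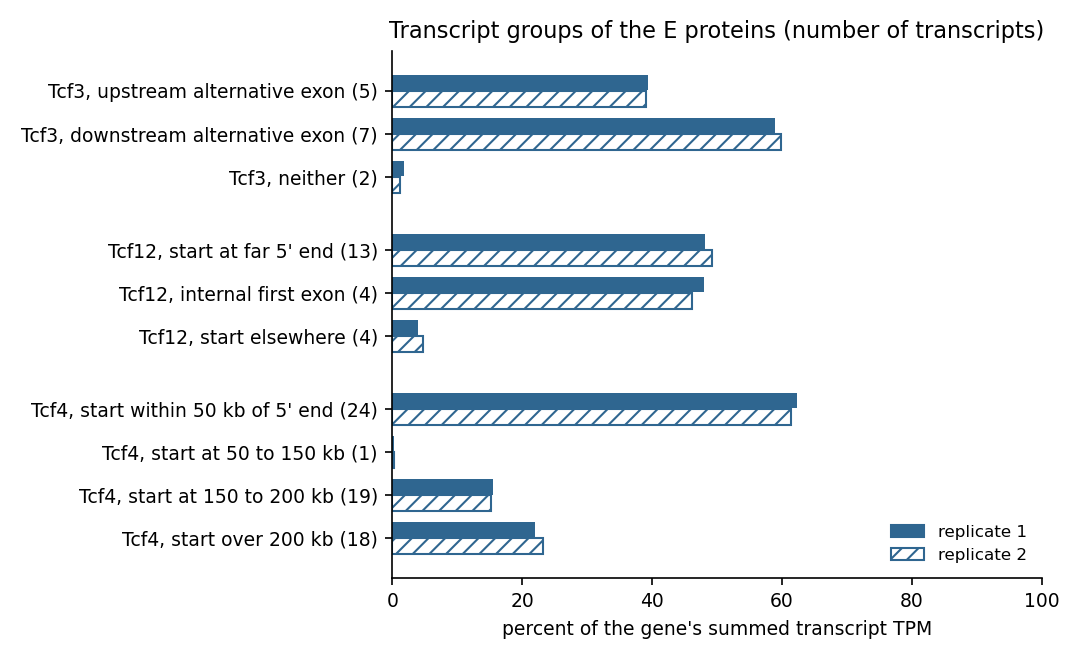
Share of each E protein gene's summed transcript TPM, in percent, held by groups of its GENCODE M21 transcripts, with filled bars for replicate 1, hatched bars for replicate 2 and the number of transcripts in parentheses. In all 3 genes the 2 libraries gave nearly the same split, with the downstream exon ahead in Tcf3, both starts near 48% in Tcf12, and the start at the 5′ end ahead in Tcf4.

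Not all E protein RNA was assigned to transcript models whose annotated coding region holds the bHLH part. Retained-intron models and short coding models that may be partial, such as Tcf4-247 of 809 nt, count as lacking it. The shares below thus depend on the annotation. Transcripts whose translation holds the stretch marked in capitals in the Tcf3 exons made up 90.7% and 90.3% of Tcf3 TPM, 68.6% and 63.9% of Tcf4 TPM, and 70.0% and 66.7% of Tcf12 TPM. Over the 3 genes, bHLH-coding transcripts summed to 503 and 457 TPM. Tcf4 gave 222 and 204 TPM of this, Tcf3 194 and 178 TPM, and Tcf12 86.5 and 75.5 TPM. The lead of Tcf4 over Tcf3 was thus smaller in bHLH-coding transcripts than over all transcripts. In Tcf12, the nonsense-mediated decay model Tcf12-220 held 4.45% and 9.21%, and the retained-intron model Tcf12-217 held 6.87% and 7.64%. A Tcf12 exon of 72 nt that some transcripts include was present in 38.3% and 38.1% of Tcf12 TPM.

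The Id, Twist and Hand genes have few transcripts. Twist1, Hand2 and Id4 have a single model each, and Twist2-201 held 97.15% and 97.01% of Twist2. Id1-201 held 94.51% and 94.16% of Id1, and the remainder was the unspliced Id1-202. Id2-201 held 94.77% and 95.85% of Id2. In Id3 a retained-intron model, Id3-203, held 5.59% and 6.86%, and the coding transcript Id3-201 held 93.3% ± 0.972 (SD, n = 2).

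Setting inhibitors against partners, Id RNA exceeded E protein RNA per length. The 4 Id genes summed to 1039 and 1092 TPM, and the 3 E proteins to 661 and 630 TPM, a ratio of 1.57 in replicate 1 and 1.73 in replicate 2. With annotated bHLH-coding E protein transcripts alone as the denominator the ratio was 2.07 and 2.39, values that depend on which models are annotated as complete. The direction depends on dividing by length, because Id transcripts are short. In CPM, Id genes summed to 762 and 787, and E proteins to 1289 and 1250, a ratio of 0.591 and 0.630. These ratios concern RNA, and protein was not measured.

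**Figure D4:**
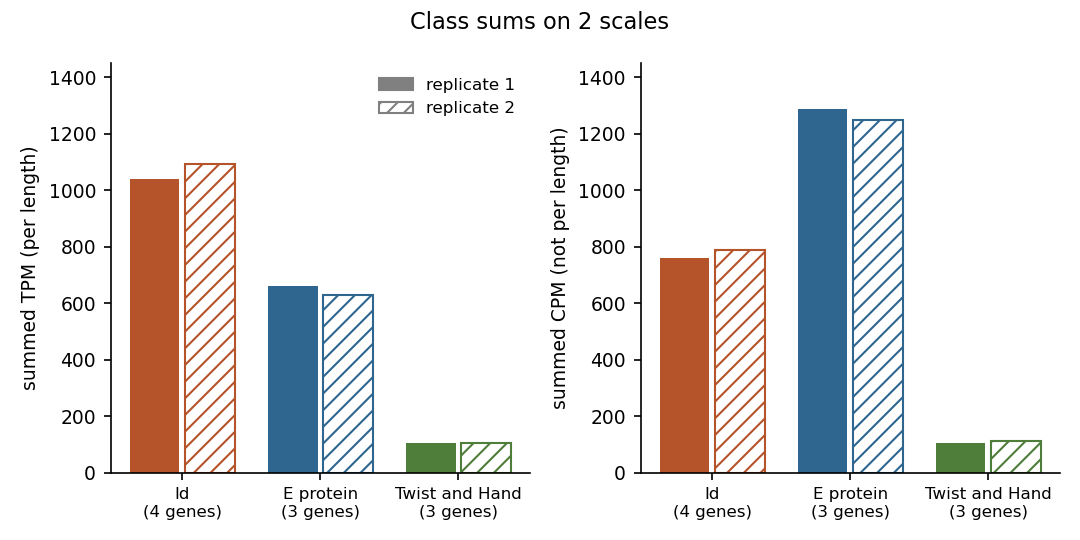
Summed level of the Id, E protein, and Twist and Hand genes in each library, per length in TPM on the left and as CPM, not divided by length, on the right, with both axes starting at 0. Id genes stand above E proteins on the left (1039 and 1092 TPM, against 661 and 630 TPM) and below them on the right, and Twist and Hand genes are lowest on both.

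Partners exceeded the tissue-restricted members on both scales. The E protein sum was 6.31 and 5.90 times that of Twist1, Twist2 and Hand2 together, which was 104.7 TPM in replicate 1 and 106.7 TPM in replicate 2. In CPM the ratio was 12.04 and 11.29. The Id sum was 9.92 and 10.2 times the Twist and Hand sum per length. Within that class, Twist1 held 48.1% ± 0.473, Twist2 35.7% ± 2.67 and Hand2 16.2% ± 2.19 (SD, n = 2).

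Twist1, Twist2 and Hand2 were not the only possible E protein partners with RNA in these limbs, and pairing was not measured. Of 40 other bHLH genes listed, 11 were at 1 TPM or more in both libraries and 7 had no read in either, where 0 reads allow up to 3 reads per library. The most abundant were Myog, a muscle differentiation factor, at 89.6 ± 4.64 TPM, Scx, the tendon progenitor factor, at 65.6 ± 6.74 TPM, and Myod1, a muscle determination factor, at 39.7 ± 2.77 TPM (SD, n = 2). Tal1, a blood and endothelial factor, was the 1 gene of the list called between libraries, at 1.09 and 1.49 TPM. With the 3 members added, these 43 genes summed to 393 and 381 TPM, of which Twist1, Twist2 and Hand2 gave 26.6% and 28.0%. The E protein sum was 1.68 and 1.65 times this total.

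**Figure D5:**
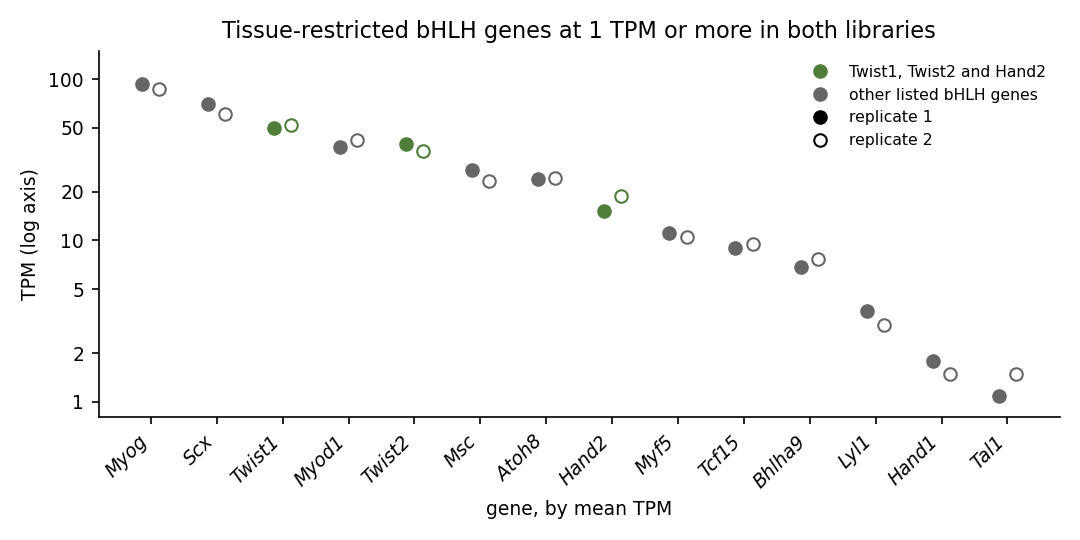
Level in TPM, on a log axis, of Twist1, Twist2 and Hand2 (green) and of the other listed bHLH genes at 1 TPM or more in both libraries. Filled points are replicate 1 and open points replicate 2. Twist1 is the third of these 14 genes by mean level, after Myog and Scx, and Hand2 lies below Atoh8.

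Cofactors that E proteins recruit were all present, with 10 of 10 genes at 1 TPM or more in both libraries. Ldb1, which bridges LMO proteins in bHLH complexes, led at 111 ± 4.19 TPM, followed by Lmo4 at 64.8 ± 0.502 TPM and the corepressor gene Cbfa2t2 at 42.8 ± 4.62 TPM, and Kat2b was lowest at 1.98 ± 0.269 TPM (SD, n = 2). The acetyltransferase gene Ep300 was the 1 cofactor called between libraries, at 17.92 and 12.78 TPM.

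Of 20 genes of the BMP pathway, which induces Id genes, 18 were at 1 TPM or more in both libraries. The list holds antagonist genes such as Nog and Grem1 as well as ligands, receptors and Smads. The type I receptor gene Bmpr1a led at 55.9 ± 3.01 TPM, followed by the joint ligand gene Gdf5 at 46.37 and 52.68 TPM and the signal transducer gene Smad5 at 43.99 and 41.98 TPM, and Smad9 was lowest at 0.785 ± 0.148 TPM (SD, n = 2). The ligand gene Bmp4 was the 1 BMP gene called, at 36.50 and 28.27 TPM. The median absolute log2 ratio between libraries was 0.09 over the 18 BMP genes tested, beside 0.12 over all genes.

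In the limb circuit of Hand2 and Twist1, 10 of 11 genes were at 1 TPM or more in both libraries. Hoxd13, the distal patterning gene, led at 67.1 ± 4.48 TPM, followed by the Snail family genes Snai2 at 61.4 ± 12.8 TPM and Snai1 at 59.5 ± 6.41 TPM (SD, n = 2). Shh, which Hand2 helps to activate in the posterior limb bud, had 0.07 and 0.06 TPM, on 4 and 3.36 expected counts. Called between libraries were Snai2, at 70.48 and 52.35 TPM, the hedgehog target Gli1, at 11.09 and 8.76 TPM, and the anterior gene Alx4, at 3.98 and 2.70 TPM. All 3 were higher in replicate 1. That is 3 of 10 genes tested, beside 18.7% of all genes, of which 1338 of 2983 called were higher in replicate 1. Hoxd13, Tbx3 and Etv4 were higher in replicate 2, as Hand2 was, by log2 ratios of 0.14, 0.18 and 0.22, and were not called. The other uncalled genes of the list went the other way, with log2 ratios of -0.22 for Snai1, -0.20 for Etv5, -0.08 for Gli3 and -0.06 for Ptch1. Shh did so too, at -0.22 on its few reads.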

How the data were processed

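Limb polyA plus RNA was measured in 1 group of 2 biological replicates, per the labels. The authors deposited expected counts for genes and transcripts for GENCODE M21 and M4 on mm10, per the labels and the file headers. The authors also deposited TPM and FPKM, normalised for length and depth, and the percent of its gene that each transcript holds. The aligner, the estimating program, the read length and the use of strand were not stated in labels or headers and so are not given here. Symbols, transcripts and coordinates come from GENCODE M21, and promoter windows from RefSeq on GRCm38.p6.

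Deposited M21 TPM, over all entries including spike-ins, was used as it stands, and transcript shares were computed from transcript TPM. Spike-ins held 7.34% of TPM in replicate 1 and 5.13% in replicate 2, which lowers gene TPM slightly more in replicate 1. With TPM rescaled over genes only, 0 of the 10 genes were called, beside 19.0% of all genes tested. Genes totalled 29633457 and 30118921 expected counts. Library differences were called at a TPM 25% higher in 1 library in genes at a mean of at least 1 TPM, with no p, since both libraries belong to 1 group. Read ratios used expected counts rounded to whole numbers, TMM factors from edgeR 4.0.16 and exact Clopper-Pearson 95% intervals. Alternatives used DESeq2 1.42.0 size factors, M4, FPKM, other minima and folds, and counts not divided by length. Transcripts with at least 5% of their gene in either library were named. From each gene list the text names the 3 highest genes, the lowest and the called ones, and from the limb circuit list all genes. Hand2os1, Gm29100 and the limb-type markers were chosen after their values were seen. The 10 genes and the lists were chosen with earlier results of these data known. Sequences were compared with Biopython 1.88 and BLAST 2.17.0. The calls were run on simulated counts with planted changes above the 25% bound, and the spread on simulated noise of a set width. Those runs do not test the 25% bound or the spread on these libraries.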

Additional observations from a re-analysis of the deposited data

How the results depend on the processing

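The depth gave 498 or more expected counts for every one of the 10 genes in each library, but on 2 libraries only. The mean log2 ratio of Id to E protein sums was 0.72. It was reversed, at -0.71, in counts not divided by length, was 0.86 with GENCODE M4 and 0.96 over protein-coding transcripts only, and ranged from 0.65 to 0.79 with either replicate left out. The log2 ratio of E protein to Twist and Hand sums was 2.61, against 2.45 with M4, 3.54 in counts not divided by length and 2.33 over coding transcripts, and 2.56 to 2.66 in single libraries. The log2 ratio of Id to Twist and Hand sums was 3.33, against 2.83 in counts not divided by length and 3.29 over coding transcripts, and 3.31 to 3.36 in single libraries. Steps of the order that were apart numbered 6, 5 with M4, 3 at the 99th percentile of the spread, where Twist1 to Twist2, Twist2 to Hand2 and Hand2 to Id4 were no longer apart, and 7 with either replicate left out. Genes called between libraries numbered 2983, against 1250 at 1.5-fold, 13632 with no minimum and 874 at a minimum of 5 TPM, and 2077 to 3029 under the other scalings, the log2(TPM + 1) difference and M4. Members called numbered 0, beside 18.7% of all genes tested, and 1 (Hand2) with M4, beside 16.7%. As shares of expected counts in place of TPM, the Tcf3 upstream exon held 35.5% in place of 39.1%, the downstream exon 64.2% in place of 59.4%, and the Tcf4 start at the 5′ end 73.0% in place of 61.8%. That Tcf4 share was 68.5% with M4, over transcripts in both annotations. Shares in single libraries ran from 39.0% to 39.3%, 58.9% to 59.9%, 46.2% to 48.0% for the Tcf12 internal exon and 61.3% to 62.3% for Tcf4. Dividing by length moves the class ratios by construction, since Id transcripts are short. For M4 the cause was not tested. Differences between libraries need both replicates, so leaving one out gave no value there. No paired analysis was possible because there is a single group.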

Other observations

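Several further bHLH genes of the limb, chosen after their values were seen, were also at 1 TPM or more in both libraries. Msc, a repressor of myogenesis also called MyoR, had 27.17 TPM in replicate 1 and 23.29 TPM in replicate 2. Atoh8, a widely expressed atonal relative, had 23.99 and 24.54 TPM, above Hand2 in both libraries. Myf5, the early muscle determination factor, had 11.06 and 10.57 TPM. Tcf15, a somite factor also called paraxis, had 8.97 and 9.51 TPM. Bhlha9, which acts in the apical ectodermal ridge and lies in a region duplicated in human split-hand disease, had 6.86 and 7.69 TPM, close to Id4 at 7.66 and 6.66 TPM. Hand1, the relative of Hand2 best known from heart and placenta, had 1.79 and 1.48 TPM, and the blood and endothelial factor Lyl1 had 3.66 and 2.98 TPM. None of these genes was called between the libraries, since the called gene of the list, Tal1, is described above. Of the 11 listed bHLH genes tested 1 was called, beside 18.7% of all genes tested.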
